A study of Homo sapiens with 8 samples.

Results

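ATF4 and the genes of the unfolded protein response were examined in RNA-seq libraries of the clear cell renal cell carcinoma (ccRCC) lines A498 and 786-O after knockdown of the lincRNA SLINKY. The set comprised 10 genes taken by name from current knowledge of the pathway: ATF4, DDIT3, TRIB3, ASNS, CHAC1, SESN2, XBP1, HSPA5, HERPUD1 and DNAJB9. All 10 were found among the 18693 genes with RefSeq messenger RNA entries, and all 10 were among the 10503 genes that reached a mean of 1 FPKM and were tested. FPKM is a read count divided by transcript length and by library size, and the values of all messenger RNA entries of a symbol were summed.

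There were 8 libraries, 4 from each cell line. In each line 2 libraries received a non-targeting control siRNA (NTC), 1 received SLINKY siRNA #1 and 1 received SLINKY siRNA #2. A498 cells were grown in DMEM and 786-O cells in RPMI-1640, in both cases with 10% fetal bovine serum, penicillin and streptomycin and L-glutamate, so that cell line and medium cannot be told apart. For transfection 10000 cells were seeded per well, and all libraries, NTC included, came from cells given 50 nM siRNA with Lipofectamine 2000 for 16 hr. The labels describe the siRNAs as purchased pools, whereas the study's methods describe custom siRNAs and a longer interval before RNA was prepared. No label says that libraries came from separate cultures, so the p-values below measure only the spread between these libraries, which may be technical. Each line stands for 1 cell line only, and in bulk RNA fewer expressing cells cannot be told apart from less RNA per cell.

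Estimated depth lay between 25100000 and 64700000 mapped reads a library, and between 8.18% and 9.43% of all gene FPKM fell on a library's 10 most abundant genes. SLINKY stood at 14.6 and 16.1 FPKM in the A498 NTC libraries, at 1.64 FPKM with siRNA #1 and at 3.01 FPKM with siRNA #2. In 786-O it stood at 1.45 and 1.39 FPKM with NTC, at 0.0569 FPKM with siRNA #1 and at 0.594 FPKM with siRNA #2. Of the renal epithelial markers, PAX8 stood at 39.2 to 48.1 FPKM and KRT8 at 444 to 692 FPKM over both lines, while the leukocyte genes PTPRC and CD3E were at 0 in every library. CD68, a lysosomal protein used as a macrophage marker, was the 1 gene of 4 on the leukocyte list to reach 1 FPKM, at 138 to 151 FPKM in A498 and at 1.70 to 5.20 FPKM in 786-O. None of the 3 endothelial or 2 hepatocyte markers reached 1 FPKM. Of the 7 kidney epithelial and ccRCC markers 2 stayed under 1 FPKM in every library. These were CA9, a gene usually high in ccRCC, at no more than 0.559 FPKM, and CUBN, a receptor of the proximal tubule, at no more than 0.0577 FPKM.

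ATF4 is a transcription factor whose protein is made when kinases that sense amino acid shortage, misfolded protein in the endoplasmic reticulum (ER) or other stress phosphorylate eIF2alpha. It switches on genes of amino acid supply and redox balance and, through CHOP (the product of DDIT3), genes linked to cell death. The unfolded protein response has further arms, in which IRE1 cuts a short intron from XBP1 messenger RNA and ATF6 is released by proteolysis, and both raise chaperones and components of ER-associated degradation. ATF4 is controlled largely at translation, so its RNA level is not a measure of its protein.

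The promoters of these genes carry known response elements, which are shown here because the arms of the response are known to act through such elements. RefSeq promoter windows of 300 bases, from 250 bases before to 50 after each start (assembly GRCh38.p14), were searched on both strands for TGATGNAA, the core to which ATF4 with a C/EBP partner binds, and for the ER stress response element, in which CCAAT and CCACG are separated by 9 bases. The 10 genes had 16 windows. The first motif was found in 3 of the 16, each of another gene, and in 3.62% of all 35116 windows. The second was found in 2 of the 16, again of different genes, and in 0.0769% of all windows. None of these matches overlapped another, and a match is a description of the letters in the window and not a measured site. In the stretches below, read 5′ to 3′ on the strand of the gene, capitals mark the motif letters. For CHAC1 and HERPUD1 the motif lies on the opposite strand and is therefore read in reverse complement. The stretches lie at chr7:97872449-97872496 for ASNS, chr15:40953242-40953289 for CHAC1, chr16:56931946-56931993 for HERPUD1, chr9:125241371-125241429 for HSPA5 and chr22:28800583-28800641 for XBP1, of which ASNS, HSPA5 and XBP1 are on the minus strand.
ASNS promoter: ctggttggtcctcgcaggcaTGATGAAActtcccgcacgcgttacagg
CHAC1 promoter: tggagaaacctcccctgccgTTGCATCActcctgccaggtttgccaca
HERPUD1 promoter: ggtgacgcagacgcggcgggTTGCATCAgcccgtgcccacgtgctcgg
HSPA5 promoter: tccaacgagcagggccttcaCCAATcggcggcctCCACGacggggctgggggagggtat
XBP1 promoter: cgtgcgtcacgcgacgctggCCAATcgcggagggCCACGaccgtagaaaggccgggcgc

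The motif began 68 bases before the start in ASNS, 209 in CHAC1 and 176 in HERPUD1. The ER stress response element began 66 bases before the start in HSPA5 and 52 in XBP1. In the hg19 coordinates of the deposited files, ATF4 spans chr22:39916569-39918691 and DDIT3 chr12:57910371-57914300. TRIB3 spans chr20:361308-378203, ASNS chr7:97481429-97501854, CHAC1 chr15:41245636-41248717 and SESN2 chr1:28585963-28609002. XBP1 spans chr22:29190548-29196560, HSPA5 chr9:127997127-128003666, HERPUD1 chr16:56966002-56977793 and DNAJB9 chr7:108210189-108215294. No entry outside the messenger RNA class overlapped these spans except at HERPUD1, where 2 such entries reached at most 0.611 FPKM.

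The first comparison asked how the stress genes differed between the cell lines. ATF4, HSPA5 and XBP1 were lower in A498. The other 7 genes, among them DDIT3 and the ATF4 targets ASNS, CHAC1 and SESN2, were higher in A498. All 10 passed limma's test at an adjusted p of 0.05, but so did 83.8% of all genes tested, 41% higher and 42.8% lower in A498, so that the number called says nothing particular about these genes. Their median absolute log2 difference was 0.44 against 0.50 over all genes. In none of the 10 did the libraries of the lines overlap. The share of all genes tested without such overlap was not counted, so this too says nothing particular about these genes.

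**Figure D1:**
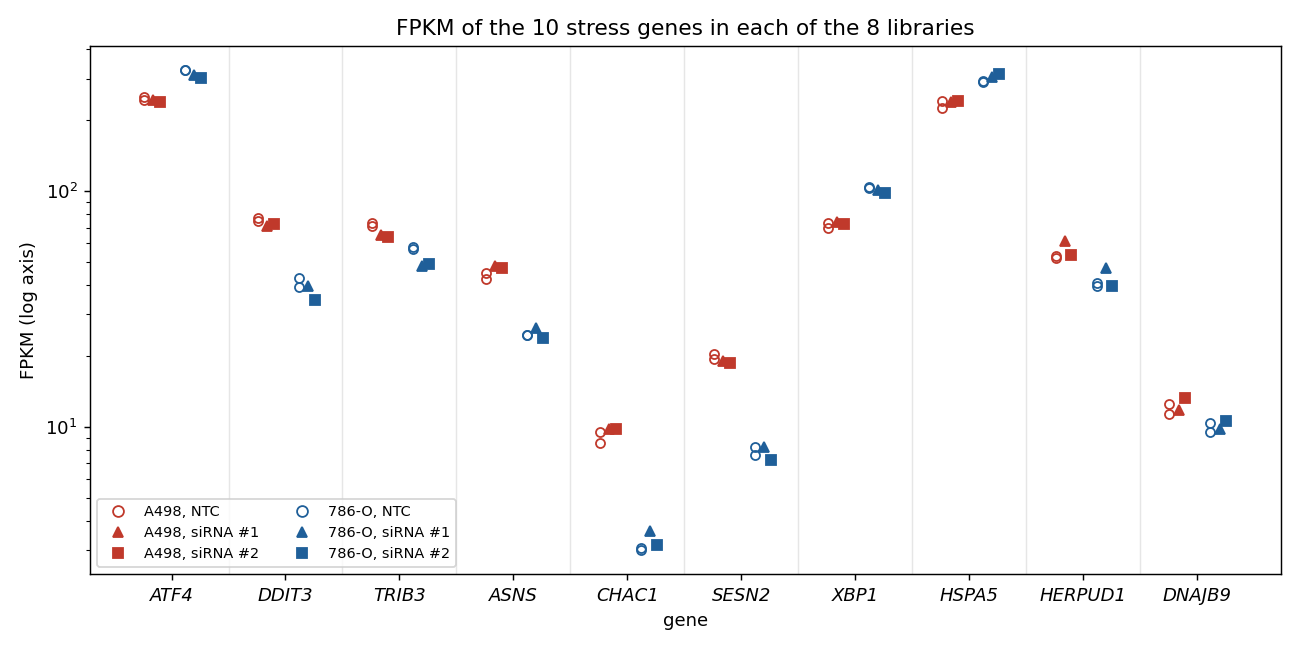
FPKM of the 10 stress genes (log axis) in each of the 8 libraries, A498 in red and 786-O in blue, with open circles for NTC, triangles for siRNA #1 and squares for siRNA #2. For each of the 10 genes the 4 libraries of one line lie apart from the 4 of the other. The separation is widest in CHAC1 and SESN2. Within a line the siRNA libraries lie close to NTC. How many of all genes separate by line was not counted.

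Among the regulators, ATF4 had the highest median level of the set in both lines. In A498 it stood at 250.5 and 245 FPKM with NTC, 245 with siRNA #1 and 238 with siRNA #2. In 786-O it stood at 327 and 326 FPKM with NTC, 313 with siRNA #1 and 302 with siRNA #2. The A498 libraries were all lower, and limma on log2(FPKM + 0.1) gave a difference of -0.37 ± 0.03 (SE, n = 4 libraries a line, adjusted p = 2.44e-06), which is 1.3-fold lower in A498.

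DDIT3 encodes CHOP, a transcription factor that ATF4 induces and that is tied to cell death under lasting ER stress. Its FPKM values in A498 were 77.3 and 74.4 with NTC, 71.3 with siRNA #1 and 72.7 with siRNA #2. In 786-O they were 42.7 and 39.4 with NTC, 39.7 with siRNA #1 and 34.4 with siRNA #2. Here A498 was the higher line, by 0.92 ± 0.05 on the log2 scale or 1.9-fold (limma, adjusted p = 1.47e-07), the opposite direction to ATF4.

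TRIB3 encodes a pseudokinase that is induced by ATF4 and CHOP and feeds back on both. It stood in A498 at 73.6 and 71.1 FPKM with NTC, 65.4 with siRNA #1 and 64.2 with siRNA #2. In 786-O it stood at 56.7 and 57.9 FPKM with NTC, 48.3 with siRNA #1 and 49.1 with siRNA #2. The lines differed by 0.37 ± 0.04 on the log2 scale (limma, adjusted p = 8.37e-06), with A498 higher. In each line both siRNA libraries lay below both NTC libraries, but the share of all genes that did so was not counted.

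Of the ATF4 targets, ASNS makes asparagine from aspartate and is the standard amino acid response gene. Its FPKM values in A498 were 42.4 and 44.8 with NTC, 48.0 with siRNA #1 and 47.3 with siRNA #2. In 786-O they were 24.6 in both NTC libraries, 26.4 with siRNA #1 and 23.8 with siRNA #2. ASNS was 1.83-fold higher in A498, a log2 difference of 0.87 ± 0.04 (limma, adjusted p = 7.79e-08).

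CHAC1, which degrades glutathione, and SESN2, which senses leucine and restrains mTORC1, showed the largest differences of the set. CHAC1 stood in A498 at 9.46 and 8.52 FPKM with NTC, 9.76 with siRNA #1 and 9.79 with siRNA #2. In 786-O it stood at 3.06 and 2.99 FPKM with NTC, 3.62 with siRNA #1 and 3.15 with siRNA #2. The log2 difference of 1.52 ± 0.06 (limma, adjusted p = 1.38e-08) is 2.87-fold and larger in size than that of 86.7% of all genes tested. SESN2 stood in A498 at 20.4 and 19.4 FPKM with NTC, 19.1 with siRNA #1 and 18.7 with siRNA #2. In 786-O it stood at 7.56 and 8.23 FPKM with NTC, 8.24 with siRNA #1 and 7.25 with siRNA #2. SESN2 was 2.47-fold higher in A498, by 1.30 ± 0.05 on the log2 scale (limma, adjusted p = 1.36e-08).

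HSPA5 encodes BiP, the main Hsp70 chaperone of the ER lumen and the usual readout of ER load. In A498 it stood at 225 and 241 FPKM with NTC, 239 with siRNA #1 and 241 with siRNA #2. In 786-O it stood at 291 and 294 FPKM with NTC, 307 with siRNA #1 and 314 with siRNA #2. Like ATF4 it was lower in A498, with a log2 difference of -0.35 ± 0.03 (limma, adjusted p = 8.89e-06).

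XBP1, the transcription factor of the IRE1 arm, was the member with the largest difference towards lower values in A498. Its A498 libraries held 69.5 and 73.0 FPKM with NTC, 73.9 with siRNA #1 and 72.5 with siRNA #2. The 786-O libraries held 103 and 105 FPKM with NTC, 101 with siRNA #1 and 98.7 with siRNA #2. The difference was -0.50 ± 0.04 on the log2 scale (limma, adjusted p = 1.42e-06), or 1.41-fold lower in A498. Cufflinks marked both XBP1 entries of the second 786-O NTC library with the status FAIL, and without that library the difference was -0.48 (adjusted p = 1.08e-05).

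The remaining pair act at the ER membrane and in its lumen. HERPUD1 organises the ubiquitin ligase of ER-associated degradation, and DNAJB9 is a co-chaperone of BiP that represses IRE1. HERPUD1 held 51.9 and 52.9 FPKM in A498 with NTC, 61.5 with siRNA #1 and 53.6 with siRNA #2. In 786-O it held 39.8 and 40.8 FPKM with NTC, 47.4 with siRNA #1 and 39.7 with siRNA #2. Its highest value in either line was thus the siRNA #1 library, and the lines differed by 0.39 ± 0.03 on the log2 scale with A498 higher (limma, adjusted p = 4.02e-06). DNAJB9 held 11.3 and 12.5 FPKM in A498 with NTC, 11.8 with siRNA #1 and 13.3 with siRNA #2. In 786-O it held 10.3 and 9.49 FPKM with NTC, 9.82 with siRNA #1 and 10.6 with siRNA #2. DNAJB9 had the smallest difference, 0.27 ± 0.05 on the log2 scale (limma, adjusted p = 0.000806).

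The order of FPKM levels within a line differed in its middle. ATF4 and HSPA5 led in both lines with ranges that overlapped each other. In A498 DDIT3, XBP1 and TRIB3 followed with median levels of 73.5, 72.7 and 68.3 FPKM and overlapping ranges, whereas in 786-O XBP1 stood alone below them at 102 FPKM, and DDIT3, at 39.5 FPKM, overlapped HERPUD1 at 40.3 FPKM below TRIB3. CHAC1 was the lowest gene in both lines. The 95% interval that Cufflinks deposits covers at most error of counting and of dividing reads between entries, not the spread between libraries. It was narrow where a gene had 1 entry. It reached 0.748% to 1.33% of the FPKM on either side for HSPA5 (22783 to 71586 reads by the width of the interval) and 5.28% to 7.17% for DNAJB9 (778 to 1434 reads). Where reads were divided between entries the width varied, and for the highest entry of ATF4 it was only 1.28% to 2.40%. For the highest entry of CHAC1 it reached 9.60% to 94.7% and for that of HERPUD1 2.92% to 38.2%. In both of these it was widest in the A498 siRNA #1 library.

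The wider pathway was described with 9 lists of 105 genes, of which 100 reached the filter. The 5 that did not were ALDH1L2, SLC6A9, FGF21, INHBE and ERN1, the last of which encodes IRE1 and stood at 0.0891 to 0.151 FPKM. Between the lines 40 were higher and 40 lower in A498, and 20 did not pass, so that 80% were called beside the 83.8% of all genes. Over all genes 41% were higher and 42.8% lower in A498, the shares beside which the counts of each list below stand. The median absolute log2 difference of the 100 was 0.40.

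**Figure D2:**
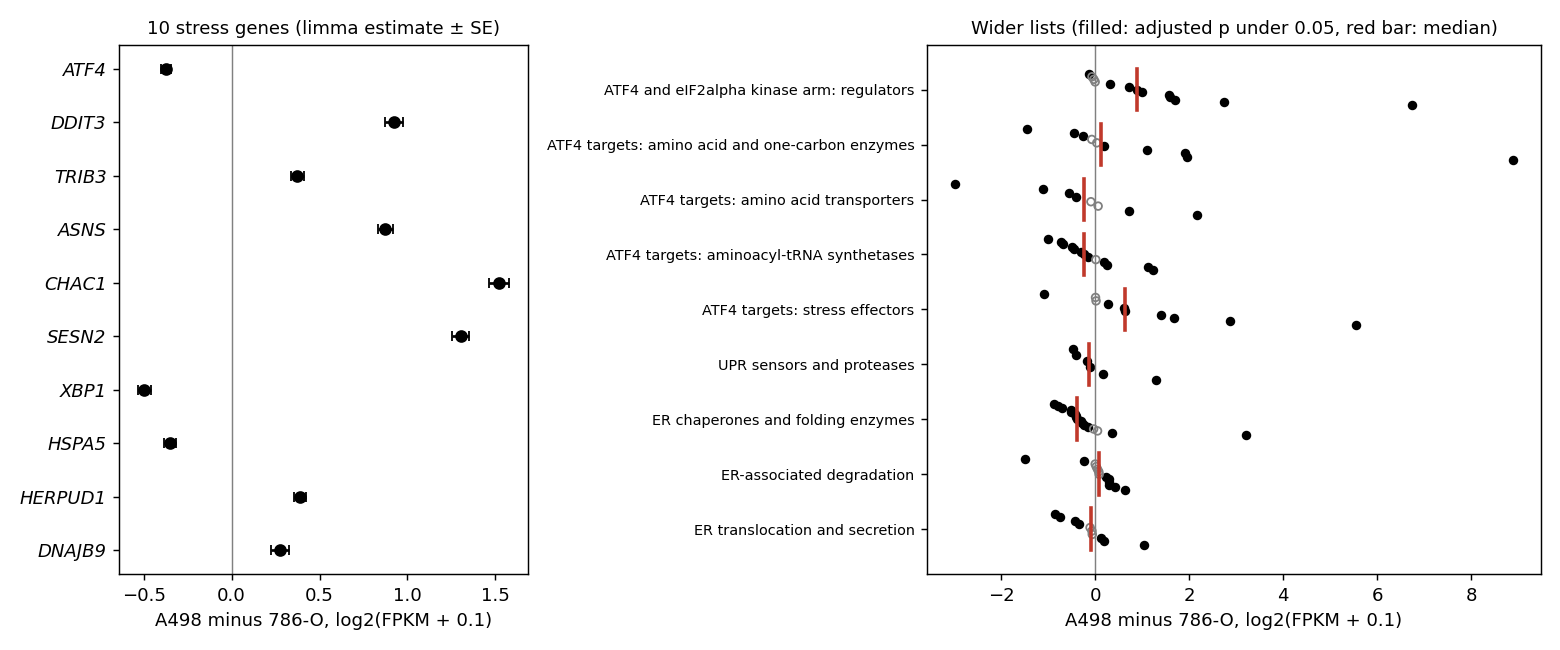
Left, limma's difference between A498 and 786-O on the log2(FPKM + 0.1) scale for the 10 stress genes, with bars for the SE. Right, the same difference for the genes of the 9 wider lists, filled where the adjusted p was under 0.05, with a red bar at each list's median. The regulators and stress effectors have medians of 0.90 and 0.63, the ER chaperones one of -0.38, and the members run from -0.50 (XBP1) to 1.52 (CHAC1).

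Of 13 regulators of the ATF4 and eIF2alpha kinase arm, 9 were higher in A498, 1 was lower and 3 did not pass, with a median log2 difference of 0.90 beside -0.02 over all genes. The largest was NUPR1, a small stress-induced chromatin protein, at 197 to 231 FPKM in A498 and 1.49 to 2.21 FPKM in 786-O (log2 difference 6.73 ± 0.07, limma, adjusted p = 1.31e-11). ATF3, a repressor induced by ATF4, stood at 42.2 to 47.7 FPKM against 5.91 to 7.88 FPKM (2.74 ± 0.06). CEBPB, which forms dimers with ATF4, stood at 33.5 to 39.2 FPKM against 10.4 to 13.0 FPKM (1.69 ± 0.06).

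Of the 10 stress effectors tested, 7 were higher in A498, 1 was lower and 2 did not pass, with a median of 0.63. GDF15, a secreted stress cytokine, was at 633 to 954 FPKM in A498 and at 13.9 to 18.8 FPKM in 786-O (5.55 ± 0.09). ADM2, a secreted peptide of the calcitonin family, was at 4.41 to 4.96 FPKM against 0.535 to 0.613 FPKM (2.86 ± 0.07). BBC3, the BH3-only death protein PUMA, was at 22.2 to 27.0 FPKM against 6.54 to 9.22 FPKM (1.68 ± 0.05).

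Of 10 enzymes of amino acid and one-carbon metabolism tested, 5 were higher in A498 and 3 lower, with a median of 0.12. PHGDH, the first enzyme of serine synthesis, was at 75.2 to 79.9 FPKM in A498 but at 0.0256 to 0.106 FPKM in 786-O, about the size of the added 0.1 or below it, so that the fitted difference of 8.88 ± 0.13 depends on that addition. PSPH, the last enzyme of that path, was at 29.5 to 34.6 FPKM against 7.82 to 8.87 FPKM (1.95 ± 0.04), and CBS, which starts cysteine synthesis from homocysteine, was at 9.64 to 10.5 FPKM against 2.41 to 2.81 FPKM (1.91 ± 0.05).

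Of 8 amino acid transporters tested, 2 were higher in A498 and 4 lower, and of 13 genes of the tRNA synthetase list 4 were higher and 8 lower, with a median of -0.24 in both lists. The cystine carrier SLC7A11 was higher in A498, at 11.8 to 13.8 FPKM against 2.36 to 3.02 FPKM (2.17 ± 0.09). The neutral amino acid carrier SLC1A4 went the other way, with 2.53 to 2.84 FPKM in A498 and 20.05 to 22.6 FPKM in 786-O (-2.97 ± 0.06).

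Over all genes tested, 41% were higher and 42.8% lower in A498. Of 17 ER chaperones and folding enzymes, 13 were lower in A498, 2 higher and 2 did not pass, with a median of -0.38. One of the 2 higher was FKBP11, a prolyl isomerase of secretory cells, at 53.5 to 58.2 FPKM in A498 against 5.32 to 6.36 FPKM in 786-O (3.21 ± 0.06). FKBP11 and the synthetase gene CARS1 are on the study's list of transcripts altered by SLINKY knockdown in both lines with both siRNAs. That list came from these libraries, so for knockdown their place here is not independent. It does not concern the difference between the lines. Over both lines, limma's fold against NTC for FKBP11 was 0.992 with siRNA #1 and 0.997 with siRNA #2. For CARS1 it was 0.985 and 0.959. Of 6 UPR sensors and proteases tested, 2 were higher and 4 lower. Of 13 genes of ER-associated degradation, 6 were higher and 2 lower, with a median of 0.09, and of 10 of ER translocation and secretion 3 were higher and 4 lower, with a median of -0.09.

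The second comparison asked whether SLINKY knockdown altered the stress genes. With siRNA #1 set against NTC over both lines, 0 of the 10 members passed limma's test, where 0.343% of all genes did (36 genes, and 1115 at an unadjusted p under 0.05). With siRNA #2, 0 of 10 passed, where 0.0286% of all genes did (3 genes, and 1420 at an unadjusted p under 0.05). At an unadjusted p under 0.05 there were 4 members with siRNA #1 and 2 with siRNA #2. The comparisons share their NTC libraries, so each is given on its own. The count of 36 genes rested on single libraries, being 3 without the second A498 NTC library, 7 without the second 786-O NTC library and 6 without the 786-O siRNA #1 library, and 24 to 32 without any other. The count of 3 genes became 11 without the 786-O siRNA #2 library, 8 without the A498 siRNA #2 library and 1 to 3 without any other.

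**Figure D3:**
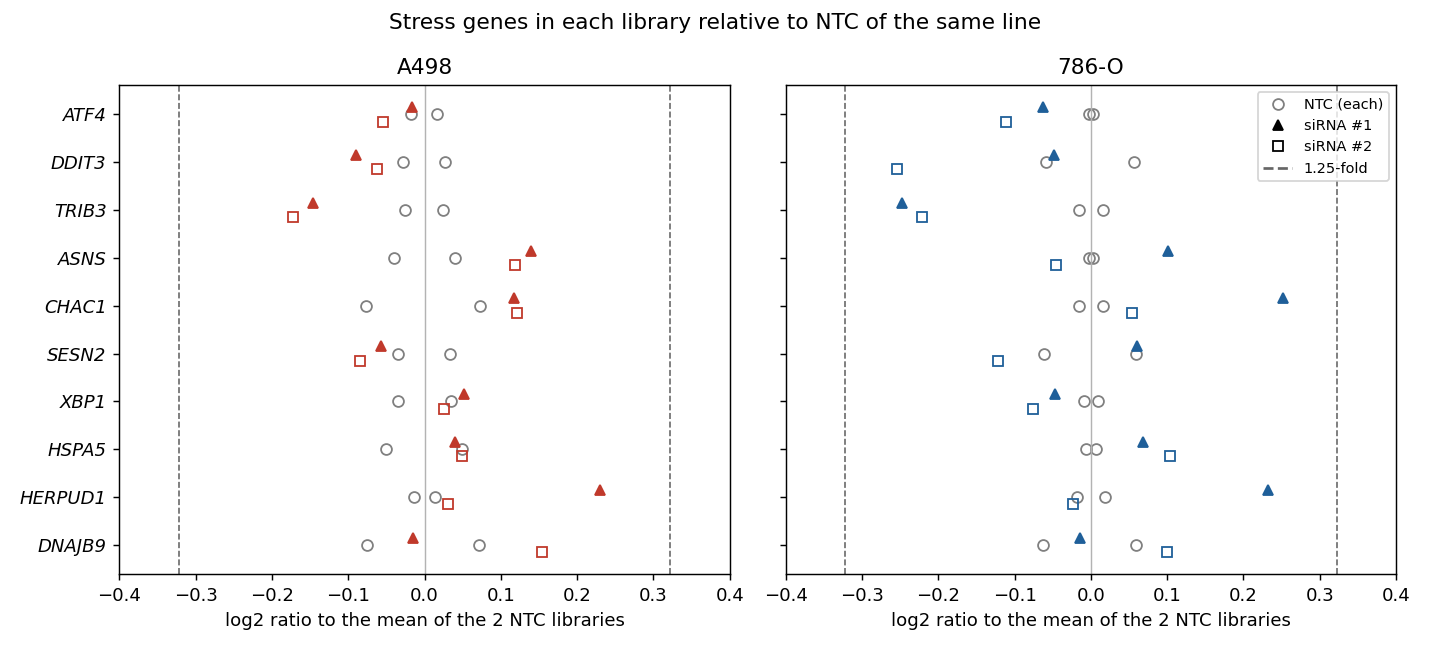
Log2 ratio of each library to the mean of the 2 NTC libraries of its line for the 10 stress genes, with grey circles for the NTC libraries, filled triangles for siRNA #1, open squares for siRNA #2 and dashed lines at 0.32 on either side, the study's fold threshold. No gene crosses a dashed line in either cell line, TRIB3 lies left of its NTC circles in all 4 siRNA libraries, and HERPUD1 lies to the right with siRNA #1 in both lines.

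TRIB3 came nearest to a shift seen with both siRNAs. In A498 its ratio to the NTC mean was 0.904 with siRNA #1 and 0.887 with siRNA #2, and in 786-O it was 0.842 and 0.858. The log2 difference over both lines was -0.20 ± 0.04 with siRNA #1 (limma, adjusted p = 0.145) and -0.20 ± 0.04 with siRNA #2 (adjusted p = 0.255). All 4 siRNA libraries lay below the NTC libraries of their line, but the share of all genes that did so was not counted. TRIB3 was picked out of the members by these values. The deposited interval of TRIB3 spans 2.13% to 3.32% of its FPKM on either side. Over both siRNAs together, a comparison added after the data were seen, the difference was -0.20 ± 0.04 (limma, adjusted p = 0.141), which does not pass, where 0.0571% of all genes did. An exact permutation test of the siRNA and NTC labels within lines gave p = 0.0556 (two-sided), the smallest value its 36 arrangements allow, so that this design cannot reach 0.05. This test was run for each of the 10 members.

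HERPUD1 had the lowest adjusted p of the members with siRNA #1, at 1.17-fold the NTC mean in A498 and 1.17-fold in 786-O. The log2 difference over both lines was 0.23 ± 0.04 (limma, adjusted p = 0.0657). With siRNA #2 it was 0.00 ± 0.04 (adjusted p = 0.977), with ratios of 1.02 in A498 and 0.984 in 786-O. The difference between the siRNAs themselves was 0.23 ± 0.05 on the log2 scale (limma, adjusted p = 0.122), where 0.371% of all genes passed. The value in A498 with siRNA #1 included 7.70 FPKM on the entry NM_001272103, which was near 0 in the other A498 libraries, and its main entry NM_001010989 held 53.8 FPKM there and 51.9 to 53.6 FPKM in the other A498 libraries. The deposited interval of the main entry in that library ran from 33.2 to 74.3 FPKM. In 786-O the main entry itself was highest with siRNA #1, at 46.4 FPKM against 38.1, 35.5 and 39.7 FPKM.

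Of the other regulators, ATF4 had ratios to NTC of 0.989 and 0.963 in A498 with siRNA #1 and siRNA #2, and of 0.957 and 0.926 in 786-O. Its 95% interval over both lines ran from -0.12 to 0.04 on the log2 scale for siRNA #1 and from -0.17 to 0.00 for siRNA #2. DDIT3 had ratios of 0.940 and 0.958 in A498 and of 0.967 and 0.838 in 786-O, and its log2 difference with siRNA #2 was -0.16 ± 0.06 (limma, adjusted p = 0.338). XBP1 lay between 0.949 and 1.04 of the NTC mean in every siRNA library.

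Among the targets, CHAC1 stood above the NTC mean in all 4 siRNA libraries, between 1.04-fold and 1.19-fold, and its difference with siRNA #1 was 0.19 ± 0.07 (limma, adjusted p = 0.409). The exact permutation test within lines gave p = 0.0556 here too, again the smallest value it allows. The share of all genes that reach it was not counted. These CHAC1 values are sums over its entries, and the main entry alone did not stand above the NTC mean in every siRNA library. With siRNA #1 its ratio was 1.16 in A498 and 1.36 in 786-O. With siRNA #2 it was 0.936 in A498 and 0.849 in 786-O. In the A498 siRNA #1 library the interval of the main CHAC1 entry ran from 0.470 to 17.2 FPKM. ASNS had ratios of 1.10 and 1.09 in A498 and of 1.07 and 0.969 in 786-O, with a difference of 0.12 ± 0.05 for siRNA #1 (limma, adjusted p = 0.463). SESN2 ranged from 0.919 to 1.04 of the NTC mean, HSPA5 from 1.03 to 1.07 and DNAJB9 from 0.989 to 1.11.

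By the study's own fold threshold, a log2 ratio of 0.32 in either direction, with no replicate of a single siRNA in a line and therefore no test, 0 of 10 members passed in each of the 4 siRNA libraries. Over all genes 3.81% passed with siRNA #1 and 5.49% with siRNA #2 in A498, and 5.91% and 3.92% in 786-O. With only the highest entry of each symbol in place of the sum, 3 members (CHAC1, XBP1 and HERPUD1) passed with siRNA #1 in 786-O, where 9.48% of all genes did. Between the NTC libraries themselves 4.67% of genes differed by this much in A498 and 4.63% in 786-O. The member ratios of the second NTC library to the first spanned 0.901 to 1.11 in A498 and 0.919 to 1.09 in 786-O, and those of the siRNA libraries to the NTC mean spanned 0.838 to 1.19.

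The effect of an siRNA was also compared between the lines. With 1 library per siRNA and line, this fit took its spread from the NTC pairs alone. It assumed that the lone libraries vary like those pairs, so only the size of the differences is given. Member differences ran from -0.13 to 0.10 for siRNA #1 and from -0.05 to 0.19 for siRNA #2 on the log2 scale. Their SEs under that assumption were 0.10 to 0.16. In the wider lists none of the 100 genes tested passed with either siRNA against NTC over both lines. In that comparison 11 with siRNA #1 and 16 with siRNA #2 had an unadjusted p under 0.05, beside 10.6% and 13.5% of all genes.

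The third comparison concerned the splicing of XBP1. RefSeq lists 2 XBP1 messenger RNAs, NM_005080 for the unspliced form and NM_001079539 for the form from which IRE1 has removed 26 bases, which changes the reading frame and gives the active factor. As annotated, the intron lies in the coding part of an exon at chr22:29192116-29192141 (GRCh37, minus strand). The annotated stretch is shown in capitals with 10 bases on either side, read from the genome on the strand of the gene. Its first base and the base after it are both G. Removing 26 bases from the next base on gives the same messenger RNA, so the annotation cannot fix the exact base of the cut.
XBP1 IRE1 intron: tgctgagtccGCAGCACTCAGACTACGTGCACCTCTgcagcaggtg

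The intron is shorter than 1 read of 36 bp, so the entries differ by few reads and the assignment rests on those at this junction. The spliced-form entry held 6.36% and 5.29% of XBP1 FPKM in the A498 NTC libraries, 7.33% with siRNA #1 and 13.5% with siRNA #2. In 786-O it held 9.91% and 0.0310% in the NTC libraries, 26.9% with siRNA #1 and 4.09% with siRNA #2. The mean was 8.13% ± 3.69 in A498 and 10.2% ± 11.8 in 786-O (SD, n = 4 each). The lines overlapped, and the difference of -2.11 percentage points had p = 0.83 in a two-sided exact permutation test over 70 arrangements. The lowest value came from the library with the status FAIL, whose interval for the unspliced entry ran from 0 to 127 FPKM, and without it the difference was -5.52 percentage points (exact p = 0.486). Without the siRNA #1 library of 786-O it turned to 3.45 percentage points (exact p = 0.371). The siRNA libraries are 1 to a line, so a difference in this share with knockdown was not tested.

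**Figure D4:**
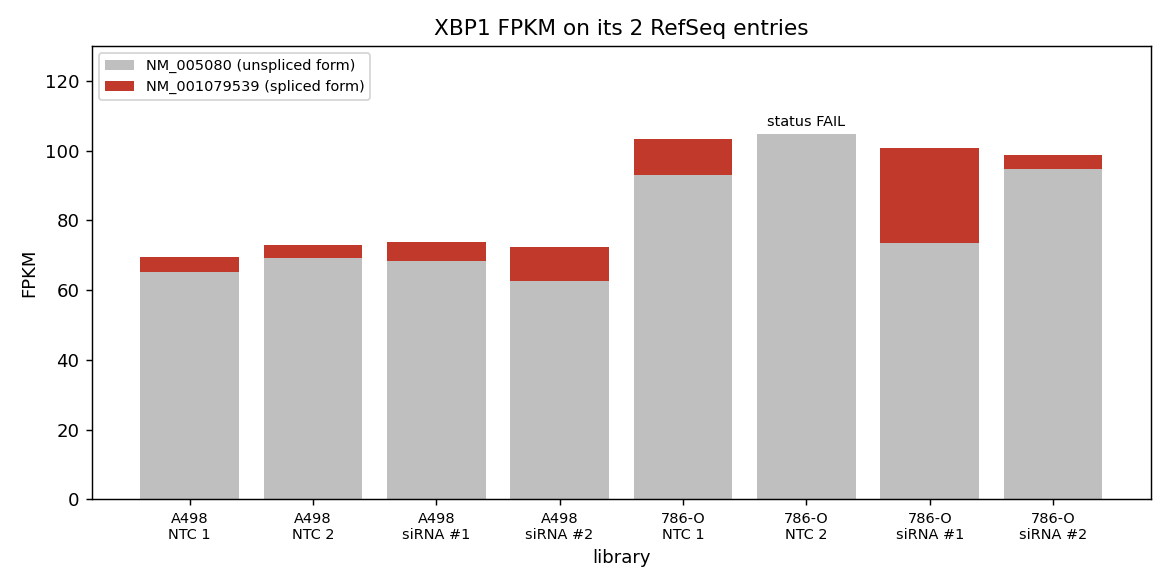
XBP1 FPKM in each library, stacked as the unspliced-form entry (grey) and the spliced-form entry (red). The stacked total is 69.5 to 73.9 FPKM in A498 and 98.7 to 105 FPKM in 786-O, while the red part varies from 0.0325 to 27.1 FPKM within 786-O alone and is almost absent in the NTC library with the status FAIL.

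Finally, the genes whose pattern was most like that of ATF4, DDIT3 and HSPA5 were listed by Pearson's r over the 8 libraries, on log2(FPKM + 0.1) centred within each line. For ATF4 they were NRBP1, GRB7, FAM50A, RABL6 and REEP6, with r of 0.974 to 0.980. For DDIT3 they were POLE4, RHOD, SFN, NHERF2 and CERS5, with r of 0.936 to 0.990, and for HSPA5 they were ZNF277, FBXW7, MSRB3, TMEM43 and SLC15A4, with r of 0.971 to 0.987. The libraries share their depth and composition across all genes, and the highest of 10503 values is high in any case. Among the members, ATF4 had r of 0.837 with DDIT3, 0.872 with TRIB3, 0.561 with SESN2 and 0.398 with XBP1. It had r of -0.228 with ASNS, -0.365 with CHAC1, -0.141 with HERPUD1, -0.635 with DNAJB9 and -0.904 with HSPA5, a description over libraries of 2 lines that differ only slightly within each line.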

How the data were processed

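RNA-seq libraries of A498 and 786-O cells were used, 8 in all, grouped by the sample titles into NTC, SLINKY siRNA #1 and siRNA #2 in each line. Sequencing gave single reads of 36 bp, which the authors aligned to hg19. The FPKM values deposited for 75378 entries a library are used here, with the 95% interval of each. The submitters' processing notes name TopHat2 2.0.0 and Cufflinks 2.0.2. Cufflinks divides reads between overlapping entries, and no scaling between libraries is stated. Read counts were not used here, so no count model was fitted, and depth was estimated from entries with a single read.

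The 35951 messenger RNA entries (accession prefix NM) were given current RefSeq symbols (97.69% matched) and summed. Genes with a mean of at least 1 FPKM were tested on log2(FPKM + 0.1) with limma 3.58.1 in R 4.3.3, with a variance trend, cell line and siRNA as terms, and Benjamini-Hochberg adjustment over all 10503 genes at 0.05. On this scale the fold change of a low gene is understated. Interactions, the difference in an siRNA's effect between the lines, used a fit of 6 groups whose spread came from the NTC pairs alone. The fits were tested on simulated data. Tables and exact tests were computed in Python 3.11.15 (pandas 2.3.3, numpy 2.4.6, scipy 1.17.1), with plots in matplotlib 3.10.9. Promoter windows came from RefSeq (GRCh38.p14, used only for sequence), and the XBP1 intron from GENCODE v44 on GRCh37.

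The members, lists and tests were chosen with earlier results of these data known. All members were named, with at most 12 genes of the wider lists (those with the largest difference among the called), the genes called with an siRNA, and the 5 genes most like ATF4, DDIT3 and HSPA5. CARS1 and the 5 list genes under the filter were named after their values were seen. Alternatives were other pseudocounts, no filter, the highest entry per symbol, median-ratio factors, no variance trend, no genes that span under 200 bp, a replicate block, other fits and leaving out each library. A joint test of both siRNAs, transcripts of the NR class and a crossed block were added after the data were seen. The deposited intervals cover only error of counting and of dividing reads between entries. Those from limma rest on the spread between these libraries.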

Additional observations from a re-analysis of the deposited data

Results flagged for a closer look

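In 22 sets of 4 libraries, one for each member and the XBP1 share in each line, 3 had a highest or lowest library farther from the rest than Dixon's criterion allows, and chance alone marks about 1 set in 20. HSPA5 was low in the first A498 NTC library at 225 FPKM, with the other A498 libraries at 239 to 241 FPKM. HERPUD1 was high in the siRNA #1 library of both lines, at 61.5 FPKM in A498 beside 51.9 to 53.6 FPKM in the others and at 47.4 FPKM in 786-O beside 39.7 to 40.8 FPKM. Each siRNA library is the only one of its kind in its line.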

How the results depend on the processing

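Between the lines all 10 members kept their direction and an adjusted p under 0.05 in every alternative run. With siRNA #1, siRNA #2 and their difference, 0 members passed in every alternative run, the added joint test included. No tested gene spanned under 200 bp, so that alternative changed nothing. The interactions had no value without the siRNA library they rest on. For HERPUD1 with siRNA #1 the adjusted p ran from 0.0573 to 0.797 over the alternatives. The number of all genes called was 5 to 44 for the difference between the siRNAs and 0 to 15 for both together with each library left out, against 39 and 6 with all. The block on replicate number gave 0 members for either siRNA and 10 between the lines. The sample titles number only the NTC libraries. The siRNA libraries were numbered by their siRNA, so among them this block coincides with siRNA #1 against siRNA #2. The difference between the NTC libraries correlated at -0.256 between the lines, and with that between the siRNA libraries at 0.254 in A498 and -0.031 in 786-O, so not every pair exceeded 0.1 and the numbers were not taken as pairs, and with crossed numbers too 10 members differed between the lines and 0 with either siRNA.

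No called value changed sign. Among those not called, with median-ratio factors the log2 difference was -0.0077 for SESN2 and -0.0076 for XBP1 with siRNA #1, and -0.0095 for HERPUD1 with siRNA #2, which the replicate block moved to -0.012. With the highest entry per symbol it was -0.20 for XBP1 with siRNA #1 and -0.16 for CHAC1 with siRNA #2, and 3 members (CHAC1, XBP1 and HERPUD1) then passed the fold threshold with siRNA #1 in 786-O, at ratios of 1.36, 0.745 and 1.26, beside 9.48% of all genes under that setting, where 0 passed with summed entries. Leaving out each library in turn gave, with siRNA #1, -0.062 to 0.068 for SESN2, -0.030 to 0.036 for XBP1 and -0.045 to 0.014 for DNAJB9. With siRNA #2 it gave -0.040 to 0.11 for ASNS, -0.059 to 0.0088 for XBP1 and -0.024 to 0.032 for HERPUD1. The difference in XBP1 share was 0.855 percentage points in the NTC libraries alone and -5.52 to 3.45 with each library left out. The cause was not tested in any of these. With 1 library per siRNA and line, small shifts in a single line cannot be tested, and the FPKM files limit precision to the spread between 8 libraries.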
